A study of Homo sapiens with 12 samples.

Results

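Protein arginine methyltransferases (PRMTs) were followed as a family in JJN3, a human multiple myeloma cell line. The members were the 9 rows of the deposited table with the symbols PRMT1, PRMT2, PRMT3, CARM1 (also called PRMT4), PRMT5, PRMT6, PRMT7, PRMT8 and PRMT9, out of 59276 gene symbols in all. They were taken by name and not by a cut on their values, but earlier results of these data were known at the time. All 9 had a value in each of the 12 samples, and 8 of them were high enough to be tested in every comparison. PRMT8 was too low to test.

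RNA was sequenced in 4 groups of 3 samples each. Parental JJN3 cells were grown with the solvent DMSO or with 10 µM MS023, an inhibitor of type I PRMTs, for 3 days. The other 2 groups, isgCtrl and iPRMT1, were JJN3 cells that had been given Cas9 and an mCherry reporter by lentivirus, sorted for mCherry, given a doxycycline-inducible guide and selected with puromycin. isgCtrl cells carried a control guide and iPRMT1 cells a guide against PRMT1 (iPRMT1_1), and both were induced with doxycycline for 3 days. They were selected populations, which can hold edited and unedited cells, and a single PRMT1 guide was used. The values are gene-level log2(TPM+1), where TPM is the abundance of a gene's transcripts relative to all others after correction for their length. Levels of different genes are therefore compared here only in TPM. Depth is unknown from these values, since every sample is scaled to a common sum. Nothing in the labels says that the 3 samples of a group were separate cultures, so p-values measure the spread between these samples, which may be technical.

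PRMTs transfer methyl groups from S-adenosylmethionine to arginines of histones, RNA-binding proteins and other substrates. Type I enzymes (PRMT1, PRMT2, PRMT3, CARM1, PRMT6 and PRMT8) make asymmetric dimethylarginine, type II enzymes (PRMT5 and PRMT9) make symmetric dimethylarginine, and the type III enzyme PRMT7 makes monomethylarginine. PRMT1 is known for most of the asymmetric dimethylation in cells, and PRMT5, which works with the partner WDR77, for most of the symmetric kind.

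The label of the cells was checked against 9 plasma cell markers. Their summed level was 5423 to 5667 TPM in DMSO, 11543 to 11913 TPM in MS023, 2600 to 2664 TPM in isgCtrl and 2806 to 2989 TPM in iPRMT1. Most of each sum was JCHAIN, the joining chain of antibodies, which averaged 4836 TPM in DMSO, 10537 TPM in MS023, 1972 TPM in isgCtrl and 2239 TPM in iPRMT1. With MS023, 5 of the 9 markers were called higher and CD38 lower (difference -0.88, limma adjusted p = 4.65e-04). Over all genes tested, 11.6% were called higher with MS023 and 19.3% lower. The markers of the Cas9 cells stood apart from those of the parental cells in both directions. Between isgCtrl and DMSO 4 were called lower and IRF4, a transcription factor of plasma cells, higher, from 95.1 to 157 TPM. Over all genes tested there, 6.7% were called lower and 7.23% higher. SLAMF7, a surface receptor of plasma cells, averaged 9.32 TPM in DMSO and 52.2 TPM in MS023, but 0.369 TPM in isgCtrl and 0.463 TPM in iPRMT1. It is among the 4 called lower between the controls, where its mean was high enough to be tested in DMSO alone. MZB1, a chaperone of antibody-secreting cells, averaged 105 TPM in DMSO, 178 TPM in MS023, 2.01 TPM in isgCtrl and 1.01 TPM in iPRMT1. Of 12 markers of other cell types, only the epithelial gene EPCAM averaged above 10 TPM in any group, at 61.6 to 91.1 TPM. Between 1 and 3 of the 12 were listed at 0 in all samples of a group. In bulk RNA, fewer cells of a type and less RNA per cell cannot be told apart. The part of these marker differences in the results below was not tested.

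PRMT1 was the highest member in every sample, and it stayed so in iPRMT1 cells. In DMSO it was measured at 653 ± 18.3 TPM (SD, n = 3), which ranked between 212 and 217 among the 21534 to 21871 genes above 0 in a sample. PRMT5 came next at 128 ± 4.92 TPM (SD, n = 3), followed by CARM1, the coactivator methyltransferase, at 44.2 ± 1.51 TPM (SD, n = 3). PRMT2 was at 40.3 ± 1.37 TPM and PRMT7 at 39.5 ± 1.34 TPM (SD, n = 3 each), and the ranges of these 2 genes overlapped. Below them were PRMT6, a nuclear enzyme for histone H3, at 30.2 ± 0.996 TPM, and PRMT3, an enzyme of the cytosol that methylates the ribosomal protein RPS2, at 24.8 ± 1.22 TPM (SD, n = 3 each). PRMT9, which methylates the splicing factor SF3B2, was lowest of the tested members at 7.25 ± 0.938 TPM (SD, n = 3). PRMT8, an enzyme known mainly from brain, lay between 0.0660 and 0.27 TPM over all 12 samples.

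The order of the first 3 members and of the last 3 was the same in all 4 groups. Between them, PRMT2, PRMT7 and PRMT6 were close. In isgCtrl the ranges of PRMT7 and PRMT6, and of PRMT6 and PRMT2, overlapped, and in iPRMT1 those of PRMT7 and PRMT2, and of PRMT2 and PRMT6. In MS023 no neighbours in the order overlapped. The members were thus spread over about the same order in the 4 groups, while single levels moved (levels in every sample are plotted by member).

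**Figure D1:**
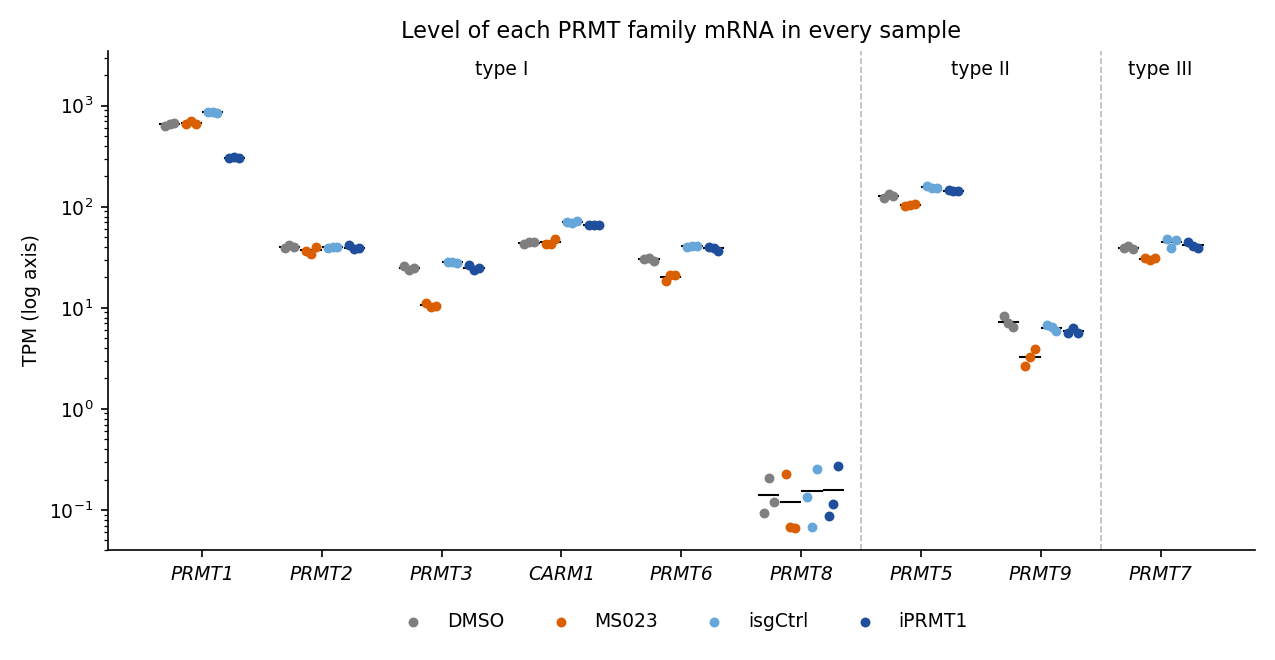
TPM on a log axis of the 9 PRMT mRNAs in each of the 12 samples. Points are samples, coloured by group, and black lines are group means, with members ordered by enzyme type. PRMT1 was highest in all samples, including iPRMT1 samples at 301 to 309 TPM, and PRMT8 did not exceed 0.27 TPM.

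Summed over the 9 members, the family came to 967 ± 21.5 TPM in DMSO, 924 ± 19.6 TPM in MS023, 1247 ± 11.9 TPM in isgCtrl and 666 ± 8.23 TPM in iPRMT1 (SD, n = 3 each). PRMT1 made up 67.5% of that sum in DMSO, 72.8% in MS023, 68.9% in isgCtrl and 45.7% in iPRMT1. The share of PRMT5 was 13.2%, 11.3%, 12.5% and 21.7% in the same order. PRMT1 mRNA was 5.12 ± 0.173 times PRMT5 mRNA in DMSO and 6.47 ± 0.335 times in MS023, and 5.51 ± 0.0889 times in isgCtrl and 2.10 ± 0.0619 times in iPRMT1 (SD, n = 3 each). These shares describe mRNA and not enzyme or activity.

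**Figure D2:**
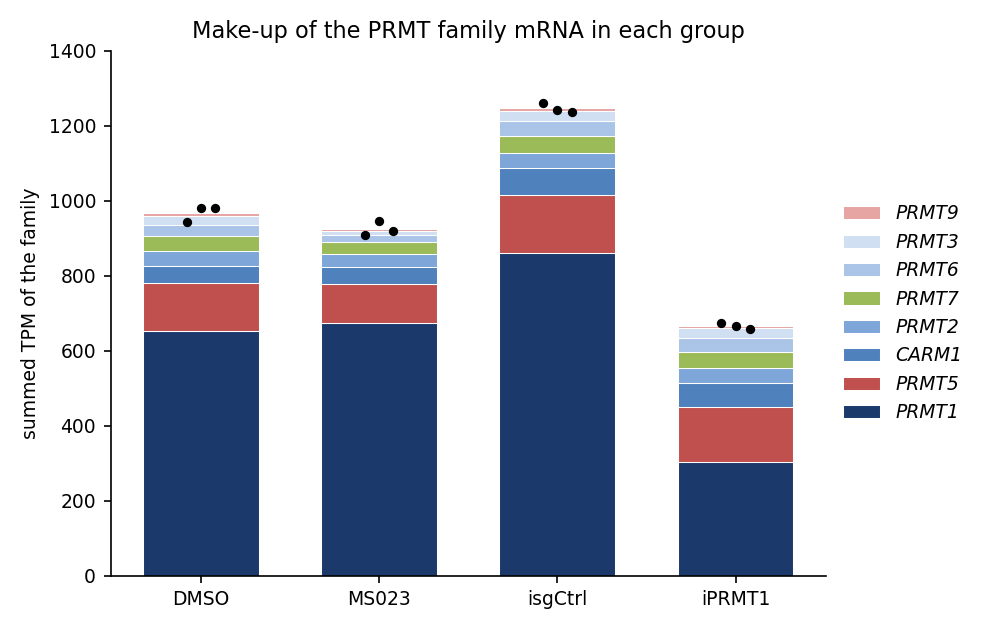
Summed TPM of the PRMT family in each group, from 0. Stacked bars are group means of 8 members (PRMT8 is too low to see) and black points are the sums of the 3 samples. The dark base is PRMT1, which was 67.5% of the sum in DMSO and 45.7% in iPRMT1.

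The targeted gene was read first as a check of the labels. PRMT1 (chromosome 19 of GRCh38, 49675786 to 49689029, plus strand, protein-coding) was at 867, 863 and 849 TPM in the isgCtrl samples and at 302, 309 and 301 TPM in the iPRMT1 samples. The groups did not overlap, and the mean in iPRMT1 was 35.4% of that in isgCtrl. The difference of log2(TPM+1) was -1.50 with a standard error of 0.04 (limma, Benjamini-Hochberg adjusted p = 7.2e-04). PRMT1 was 1 of 96 genes called in this comparison, or 0.781% of 12285 tested, of which 0.366% were lower and 0.415% higher. A gene was called when its adjusted p in limma was under 0.05 and its absolute difference of log2(TPM+1) was above 0.48, a scale that makes changes of low genes smaller. Edited and unedited transcripts both enter TPM, so the level that remained is not a share of unedited cells. An exact permutation test, two-sided, of a gene over 3 samples a group can reach no p under 0.1, so calls rest on the fit across all genes.

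Whether the other PRMT mRNAs moved in these samples when PRMT1 mRNA fell was read from the same fit. None of the other 7 tested members was called in limma, 1 of them (PRMT3) was at an unadjusted p under 0.05, and their differences lay between -0.16 and -0.02. PRMT3 had the lowest of these, with 28.2, 28.5 and 27.5 TPM in isgCtrl and 26.7, 23.5 and 24.8 TPM in iPRMT1 (difference -0.16, standard error 0.06, limma adjusted p = 0.246). No difference among these 7 members passed the test. Whether their samples overlapped is not used here, since the share over all genes was not counted. Over all 12285 genes tested, 2290 were at an unadjusted p under 0.05 in limma. PRMT5 was at 160, 154 and 154 TPM in isgCtrl and at 147, 142 and 144 TPM in iPRMT1 (difference -0.11, adjusted p = 0.29 in limma). CARM1 was at 71.1, 69.5 and 72.8 TPM in isgCtrl and at 65.8, 66.3 and 65.8 TPM in iPRMT1 (difference -0.11, adjusted p = 0.288 in limma).

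The 95% confidence intervals, not adjusted for the number of genes, describe these samples and 1 guide. As the spread between the samples may be technical, they set no limit on a rise in other cultures. Their upper bounds, on the log2(TPM+1) scale, were -0.01 for PRMT3, 0.01 for CARM1, 0.01 for PRMT5, 0.06 for PRMT6, 0.07 for PRMT9, 0.12 for PRMT2 and 0.14 for PRMT7. All of them were below the threshold of 0.48. The type I members other than PRMT1 summed to 180 ± 1.61 TPM in isgCtrl and 169 ± 4.24 TPM in iPRMT1, and the type II members to 162 ± 3.71 TPM and 151 ± 2.16 TPM (SD, n = 3 each). The median difference of the 8 tested members was -0.10, and that of all 12285 genes was -0.04.

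MS023 left a different pattern. Of 8 tested members, 3 fell and none rose: PRMT3, PRMT9 and PRMT6. In the whole table, 30.9% of 12903 genes tested were called, 19.3% lower and 11.6% higher, so calls were common in this comparison and the members' count is not set apart from that background. Under median-ratio scaling the called genes split into 1964 lower and 1905 higher, in place of 2486 and 1500. The median difference of the members was -0.32, and that of all genes tested was -0.11.

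PRMT3 (chromosome 11, 20387558 to 20509338, plus strand) was at 26.0, 23.6 and 24.7 TPM in DMSO and at 11.2, 10.2 and 10.4 TPM in MS023. No MS023 sample came near a DMSO sample, and the mean was 43.0% of that in DMSO. The difference was -1.15 with a standard error of 0.07 (limma, adjusted p = 1.39e-04). PRMT9 (chromosome 4, 147637785 to 147684163, minus strand) was at 8.25, 7.11 and 6.39 TPM in DMSO and at 2.66, 3.28 and 3.92 TPM in MS023. The groups did not overlap, though on the log2 scale the SD within each was larger than for PRMT3. The mean was 45.4% of that in DMSO and the difference -0.95 with a standard error of 0.14 (limma, adjusted p = 0.00252).

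PRMT6 (chromosome 1, 107056674 to 107067636, plus strand) was at 30.4, 31.1 and 29.1 TPM in DMSO and at 18.5, 21.1 and 20.9 TPM in MS023. The groups did not overlap, and the mean was 66.8% of that in DMSO. The difference was -0.56 with a standard error of 0.08 (limma, adjusted p = 0.00194). This call was lost under median-ratio scaling (-0.46) and quantile normalization (-0.43), which leave it lower but under the threshold of 0.48.

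PRMT5 and PRMT7 were lower by less than the threshold. PRMT5 (chromosome 14, 22920525 to 22929408, minus strand) was at 123, 133 and 127 TPM in DMSO and at 101, 104 and 108 TPM in MS023, with a difference of -0.29 and a standard error of 0.06 (limma, adjusted p = 0.0118). PRMT7 (chromosome 16, 68310951 to 68360852, plus strand) was at 39.1, 41.0 and 38.4 TPM in DMSO and at 31.1, 30.0 and 30.9 TPM in MS023, with a difference of -0.36 and a standard error of 0.06 (limma, adjusted p = 0.00461). Neither gene was called. The lack of overlap between their groups is not used, since its share over all genes was not counted.

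The other 3 members did not pass the test. PRMT1, the most abundant type I member, was at 634, 657 and 670 TPM in DMSO and at 664, 700 and 656 TPM in MS023, and these ranges overlapped. Its difference was 0.04 (95% confidence interval -0.11 to 0.20, limma adjusted p = 0.597). CARM1 (chromosome 19, 10871553 to 10923075, plus strand) was at 42.5, 45.3 and 44.8 TPM in DMSO and at 42.8, 43.2 and 48.2 TPM in MS023, a difference of 0.02 (95% confidence interval -0.16 to 0.20, limma adjusted p = 0.875). PRMT2 (chromosome 21, 46635595 to 46665124, plus strand) was at 39.3, 41.9 and 39.8 TPM in DMSO and at 36.9, 34.3 and 40.3 TPM in MS023, a difference of -0.12 (95% confidence interval -0.31 to 0.08, limma adjusted p = 0.263). The intervals of these 3 members lay within the thresholds of -0.48 and 0.48. By enzyme type, the type I members other than PRMT1 summed to 140 ± 2.09 TPM in DMSO and 113 ± 6.14 TPM in MS023, and the type II members to 135 ± 4.56 TPM and 107 ± 3.96 TPM (SD, n = 3 each).

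**Figure D3:**
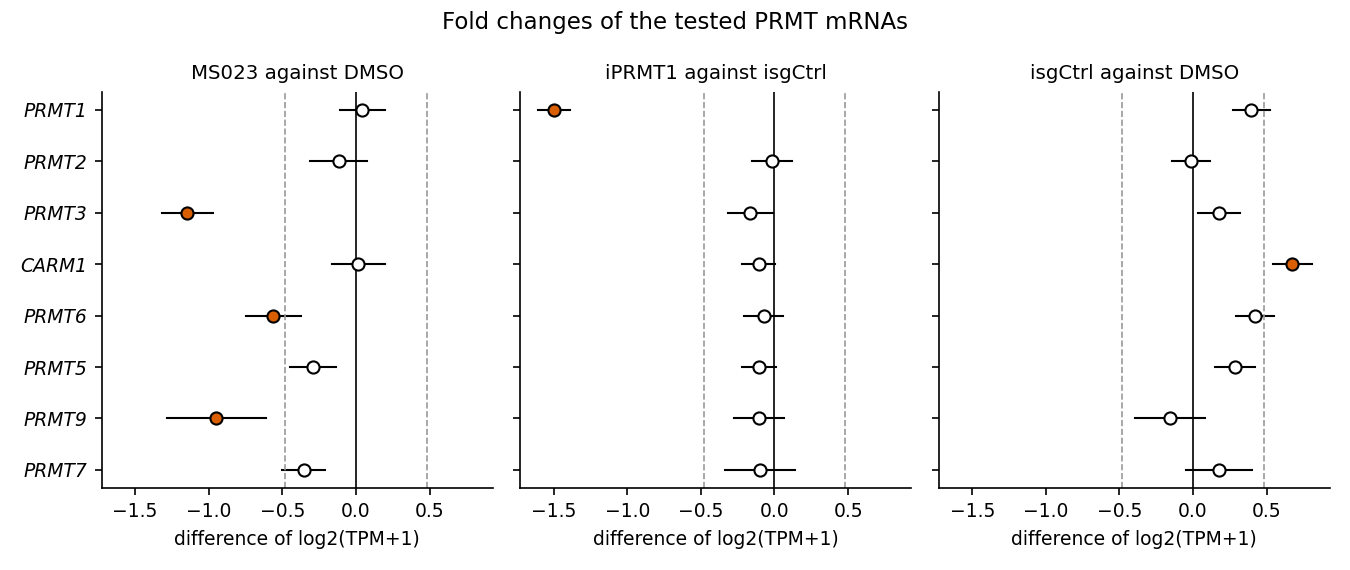
Differences of log2(TPM+1) for the 8 tested PRMT mRNAs in 3 comparisons. Points are limma estimates, lines are 95% confidence intervals, dashed lines mark -0.48 and 0.48, and filled points were called. PRMT3, PRMT6 and PRMT9 were called with MS023, PRMT1 alone in iPRMT1, and CARM1 alone between the controls.

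Whether a member responded differently to the inhibitor and to the guide was tested as the MS023 effect minus the iPRMT1 effect, in a limma fit of all 12 samples. Of 8 tested members, 4 differed, against 24.4% of the 13256 genes tested. PRMT1 was 1 of the 4 as the target of the guide, so the count does not set the family apart. PRMT1 differed by 1.54 with a standard error of 0.07 (adjusted p = 3.68e-07). Its mRNA fell with the guide and did not pass the test with MS023. PRMT3 differed by -0.98 with a standard error of 0.09 (adjusted p = 2.47e-05), and PRMT9 by -0.85 with a standard error of 0.16 (adjusted p = 0.00257). PRMT6 differed by -0.49 with a standard error of 0.09 (adjusted p = 0.00178). That value lies just past the threshold, and it fell under it without DMSO replicate 2 (-0.47), MS023 replicate 1 (-0.43), isgCtrl replicate 1 (-0.478), iPRMT1 replicate 1 (-0.46) or iPRMT1 replicate 2 (-0.477). For PRMT5 the difference of effects was -0.18 (95% confidence interval -0.34 to -0.03, adjusted p = 0.0645 in limma). For PRMT7 it was -0.25 (95% confidence interval -0.51 to -0.0023, adjusted p = 0.108 in limma). The guide and the inhibitor were tested in cells with different controls, so differences between the parental and the Cas9 cells cannot be told apart from differences between guide and inhibitor.

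Between the control groups only CARM1 was called among 8 members. isgCtrl cells differ from DMSO cells in Cas9, guide, selection, doxycycline and solvent at once, and these cannot be told apart. CARM1 was at 42.5, 45.3 and 44.8 TPM in DMSO and at 71.1, 69.5 and 72.8 TPM in isgCtrl, with no overlap. It was called higher, at 161% of DMSO (difference 0.68, standard error 0.05, limma adjusted p = 0.00102). In this comparison 13.9% of 12661 genes were called, 6.7% lower and 7.23% higher. PRMT1, at 131.6% of DMSO, had a difference of 0.40 with a standard error of 0.05 (limma, adjusted p = 0.00364), under the threshold. PRMT6 had a difference of 0.42 (limma, adjusted p = 0.00329) and PRMT5 of 0.29 (limma, adjusted p = 0.0121). PRMT3 (0.18), PRMT7 (0.18), PRMT9 (-0.15) and PRMT2 (-0.01) did not pass the test. This comparison shares its DMSO samples with the MS023 comparison and its isgCtrl samples with that of the guide.

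The sequences upstream of PRMT3, PRMT6 and PRMT9 are shown because these members were called lower with MS023. They are taken from RefSeq windows (GRCh38.p14) that reach from 250 bases before to 50 bases after the start of transcription, and are read 5′ to 3′ on the gene's strand, with each CpG in capitals. Each is printed up to the first base that GENCODE v44 annotates as exon. For PRMT6 and PRMT9 that is the RefSeq start, while for PRMT3 the 92 bases printed end 158 bases before it. They lie at chr11:20387466-20387557 on the plus strand (PRMT3), chr1:107056424-107056673 on the plus strand (PRMT6) and chr4:147684164-147684413 on the minus strand (PRMT9).
PRMT3: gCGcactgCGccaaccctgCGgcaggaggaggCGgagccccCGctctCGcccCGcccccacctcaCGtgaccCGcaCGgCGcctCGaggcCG
PRMT6: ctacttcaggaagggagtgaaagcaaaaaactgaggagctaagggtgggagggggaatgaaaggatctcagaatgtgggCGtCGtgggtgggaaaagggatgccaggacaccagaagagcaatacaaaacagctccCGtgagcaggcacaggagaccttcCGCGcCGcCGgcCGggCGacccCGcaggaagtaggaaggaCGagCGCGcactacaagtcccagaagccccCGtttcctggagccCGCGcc
PRMT9: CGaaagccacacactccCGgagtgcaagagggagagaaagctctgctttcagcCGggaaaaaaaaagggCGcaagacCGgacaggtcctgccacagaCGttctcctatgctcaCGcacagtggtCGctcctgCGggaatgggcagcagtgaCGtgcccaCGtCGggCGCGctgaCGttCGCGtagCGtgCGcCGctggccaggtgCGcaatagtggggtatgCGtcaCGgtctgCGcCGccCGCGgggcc

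PRMT3 had 13 CpG in 92 bases, PRMT6 16 in 250 and PRMT9 27 in 250. Over the full windows, the ratio of observed to expected CpG was 1.15 for PRMT3, 0.855 for PRMT6 and 1.01 for PRMT9. The 9 members have 12 windows, since CARM1, PRMT7 and PRMT8 have 2 each. The ratio was above 0.6 in 11 of the 12, and in 48.8% of all 35116 windows. The exception was the PRMT8 window that holds its GENCODE start, with 1 CpG and a ratio of 0.06. High CpG content was thus not limited to the 3 members that fell. The 48.8% is over all windows, whether or not their gene was expressed in these cells. The share among expressed genes was not counted, so the family is not set apart by it. Both strands of the windows were searched for words of cell cycle and housekeeping factors: TTTCCCGC, TTTGGCGC, TTTCGCGC and TTTGCCGC for E2F, GCGC, any base and TGCGC for NRF1, CCAAT for NF-Y, CCGGAAG for ETS factors and TTTGAA for the CHR element, none of which lies within a word of another. They were in 3.3%, 5.8%, 34.6%, 10.3% and 15.2% of all windows. The 3 stretches printed hold none of them whole. In the full windows, PRMT5 had 3 and PRMT1 2 CCAAT words, PRMT2 had 3 NRF1 words, PRMT7 had 1 E2F word, PRMT3 had 1 ETS word, which begins in the printed stretch and ends past it, and the PRMT8 window at its GENCODE start had 1 CCAAT and 1 CHR word. A match is a description of letters and not a bound site.

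How well reads can be assigned differs between members. In GENCODE v44, 278 of the 5084 distinct 31-base words of PRMT1 transcripts (5.47%) also occur in other genes on the same strand, 101 of them in the pseudogene PRMT1P1 and 14 in PRMT8. PRMT1P1 did not exceed 0.261 TPM in any sample, and PRMT5P1 and CARM1P1 were listed at 0. PRMT2, PRMT6 and PRMT9 shared none. On the opposite strand, 19.3% of the words of CARM1 (861 with YIPF2), 21.0% of those of PRMT5 (783 with PRMT5-AS1) and 13.0% of those of PRMT7 (1873 with SMPD3) are shared. PRMT1 shares 8.34% of its words on that strand, PRMT8 4.11% and PRMT3 0.252%. Whether the library kept the strand is not given in the sources used here. Reads of antisense partners may therefore be mixed in for all members that share such words. PRMT5-AS1 was at most 0.413 TPM. YIPF2, a gene of vesicle transport, rose with MS023 from 45.5 to 80.6 TPM (difference 0.81, limma adjusted p = 4.51e-04) while CARM1 did not pass the test.

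Protein-coding genes within 10 kb of a member were read in the same fits. Of 13 such genes 12 could be tested with MS023, where 5 were called against 30.9% of all genes. In iPRMT1 cells, where 0.781% of all genes were called, limma called none of 12. At an unadjusted p under 0.05 were 3 of the 12, against 2290 of the 12285 genes tested. BCL2L12, a gene of the BCL2 family that ends 1870 bases before PRMT1, was at 126 TPM in DMSO and 77.4 TPM in MS023 and fell (difference -0.70, limma adjusted p = 8.52e-04), while PRMT1 did not pass the test. In iPRMT1 cells BCL2L12 was at 116 TPM against 142 TPM in isgCtrl (difference -0.29, limma adjusted p = 0.0548). IRF3, the interferon regulatory factor farther upstream, was at 94.8 TPM against 110.1 TPM (difference -0.22, limma adjusted p = 0.233). Neither neighbour of PRMT1 was called in iPRMT1 cells. HTATIP2, which ends 3776 bases before PRMT3, fell with MS023 as PRMT3 did, from 41.1 to 22.3 TPM (difference -0.87, limma adjusted p = 0.00262). RBM23, downstream of PRMT5, had a difference of -0.49 with MS023 and lost its call without DMSO replicate 1 (-0.42), MS023 replicate 1 (-0.44) or MS023 replicate 3 (-0.44), and under median-ratio (-0.387) and quantile (-0.403) scaling. C19orf38, upstream of CARM1, had a difference of 0.59 (limma adjusted p = 0.0490) with MS023 and lost its call without any of the 3 DMSO samples or without MS023 replicate 2 or 3 (adjusted p from 0.0618 to 0.13 in limma), and also without a filter or with a pseudocount of 0.1 (0.121 and 0.0574). Between the controls 2 of 12 neighbours were called, where 13.9% of all genes were. TIMM29, downstream of CARM1, rose (0.54, and 0.459 under quantile normalization, below the threshold). C19orf38 was lower (-0.74), at 0.936 TPM in isgCtrl against 2.21 TPM in DMSO. Its mean passed the filter in DMSO alone, so only a lower call was open to it. That call was lost without DMSO replicate 1 or 2 or isgCtrl replicate 1 or 2 (limma adjusted p from 0.0568 to 0.0885).

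Partners and regulators of the enzymes formed a list of 8 genes. With MS023, 2 of 8 tested rose and 1 was called lower, where 30.9% of all genes were called, with a median difference of -0.15 against -0.11 for all genes. BTG1, an antiproliferative protein that binds PRMT1, rose from 20.6 ± 2.93 to 157 ± 3.78 TPM (SD, n = 3 each), a difference of 2.87 with a standard error of 0.11 (limma, adjusted p = 5.5e-05). Its relative BTG2, which also binds PRMT1, rose from 76.6 ± 1.35 to 178 ± 5.76 TPM, a difference of 1.20 with a standard error of 0.06 (limma, adjusted p = 8.8e-05). COPRS, a nuclear partner of PRMT5, was at 50.04 TPM in DMSO and 35.6 TPM in MS023 (difference -0.4804, just past the threshold), and its call was lost without DMSO replicate 2 (-0.43), MS023 replicate 1 (-0.44) or MS023 replicate 3 (-0.45), and under median-ratio (-0.378) and quantile (-0.394) scaling. The PRMT5 partners WDR77 (-0.14), RIOK1 (-0.15) and CLNS1A (-0.35, limma adjusted p = 0.00547) were not called.

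None of the 7 tested partners was called by limma in iPRMT1 cells. At an unadjusted p under 0.05 were 2 of the 7, against 2290 of the 12285 genes tested. BTG1 was at 14.5 ± 1.73 TPM in isgCtrl and 19.4 ± 1.06 TPM in iPRMT1 (difference 0.40, limma adjusted p = 0.122), and BTG2 at 75.8 and 84.0 TPM (difference 0.15, limma adjusted p = 0.208). The differences of WDR77 (-0.07), COPRS (-0.07), RIOK1 (0.11) and CLNS1A (0.02) did not pass the test either. Between the controls WDR77 rose from 54.4 to 82.9 TPM (difference 0.60, limma adjusted p = 0.00324). It was the only partner called there of 8 tested, where 13.9% of all genes were called.

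S-adenosylmethionine, the methyl donor, is made by MAT2A and recycled through AHCY. With MS023, 1 of 12 tested genes listed with this supply was called higher and 3 lower, near the 30.9% called over all genes. Their median difference was -0.06 against -0.11 over all genes. The list takes in AHCYL1 and AHCYL2, named for their likeness to AHCY, and no role of theirs in the supply is claimed. CBS, which takes homocysteine out of the cycle, fell from 39.2 ± 7.11 to 17.9 ± 3.22 TPM (difference -1.08, limma adjusted p = 0.00398). MTR, which remakes methionine, fell from 4.16 to 1.74 TPM (difference -0.91, limma adjusted p = 0.00338). AHCYL1 was lower (-0.52), a call lost without MS023 replicate 2 (-0.41) and under median-ratio (-0.421) and quantile (-0.404) scaling. AHCYL2 was higher (0.51), a call lost without DMSO replicate 3 (0.37) or MS023 replicate 1 or 3 (limma adjusted p = 0.0705 and 0.0678) and without a filter (0.0586). MAT2A (-0.13), AHCY (0.21) and MTAP (-0.27) were not called. In iPRMT1 cells none of the 12 was called by limma, with MAT2A at 0.04, AHCY at -0.08 and MTAP at 0.02. At an unadjusted p under 0.05 was 1 of the 12, against 2290 of the 12285 genes tested. Between the controls CBS was called higher (0.57), a call lost without DMSO replicate 2 (0.42) or without any isgCtrl sample (limma adjusted p from 0.0625 to 0.0702), and lost without a filter (0.0568).

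Other enzymes that act on arginines were mostly low, and 4 of 8 could be tested with MS023. METTL23, which methylates histone arginines, fell from 42.3 ± 3.10 to 21.9 ± 2.36 TPM (difference -0.92, limma adjusted p = 9.32e-04). It was the only call of the 4, where 30.9% of all genes were called. NDUFAF7, the mitochondrial arginine methyltransferase of complex I, was the only gene around the family called in iPRMT1 cells, where 0.781% of all genes were. It was at 13.8 ± 0.583 TPM in isgCtrl and 9.51 ± 0.788 TPM in iPRMT1 (difference -0.50, limma adjusted p = 0.0475). That call was lost when any of the 6 samples was left out (limma adjusted p from 0.0991 to 0.146, lost also by size without isgCtrl replicate 1 or iPRMT1 replicate 1). It was lost too without a filter, with a pseudocount of 0.1 and under both scalings (limma adjusted p from 0.0528 to 0.0713). Between the controls PADI4, a peptidylarginine deiminase, was at 1.53 TPM in DMSO and 0.00398 TPM in isgCtrl. Its mean passed the filter in DMSO alone, so only a lower call was open to it, and that call carries no weight. It was the only call of 4 tested, where 13.9% of all genes were called.

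Among 7 tested readers of methylarginine, 2 rose with MS023 and none fell, near the 30.9% called over all genes. In iPRMT1 cells limma called none of 6. At an unadjusted p under 0.05 was 1 of the 6, against 2290 of the 12285 genes tested. SND1, a Tudor protein that binds symmetric dimethylarginine, rose from 139 ± 4.73 to 216 ± 6.30 TPM (difference 0.64, limma adjusted p = 6.34e-04), and TDRKH from 2.10 to 4.75 TPM (difference 0.89, limma adjusted p = 0.0105). Between the controls TDRD7 was at 1.05 TPM in DMSO and 0.250 TPM in isgCtrl (-0.72). It was the only reader called there of 7 tested, where 13.9% of all genes were called. Its mean passed the filter in DMSO alone, so only a lower call was open to it, and that call carries no weight. The dimethylarginine hydrolases break down free methylarginine. With MS023 both of the 2 tested were called, where 30.9% of all genes were called. DDAH2 rose from 19.1 to 33.3 TPM (0.77). DDAH1 was low, at 1.98 TPM in DMSO and 0.754 TPM in MS023 (-0.75). The mean of DDAH1 passed the filter in DMSO alone, so only a lower call was open to it, and that call carries no weight. In iPRMT1 cells neither was called by limma (0.33 and -0.44). Both were at an unadjusted p under 0.05, as were 2290 of the 12285 genes tested.

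Of 23 tested substrates of the enzymes, 6 were called lower and none higher with MS023, where 30.9% of all genes were called and 19.3% lower, with a median difference of -0.36 against -0.11 over all genes. MRE11, a DNA repair nuclease methylated by PRMT1, fell from 28.1 ± 4.56 to 11.4 ± 3.45 TPM (difference -1.27, limma adjusted p = 0.00679). SERBP1, an RNA-binding protein, fell from 661 ± 14.1 to 402 ± 9.48 TPM (difference -0.72, limma adjusted p = 3.42e-04). MED12 (-0.57), a Mediator subunit methylated by CARM1, and SNRPB (-0.53), a core splicing protein methylated by PRMT5, were called lower too, but MED12 not under quantile normalization (-0.454) and SNRPB not under median-ratio scaling (-0.426). SMARCC1, a CARM1 substrate, was lower (-0.55), a call lost without DMSO replicate 1 (-0.43) or MS023 replicate 2 (-0.478), and under median-ratio (-0.449) and quantile (-0.448) scaling.

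In iPRMT1 cells limma called none of 23 tested substrates, with a median difference of -0.05 against -0.04 over all genes. At an unadjusted p under 0.05 were 3 of the 23, against 2290 of the 12285 genes tested. Between the controls the median of the 23 substrates was 0.25 against 0.07 over all genes. Called higher were 3 of the 23 and lower none, where 13.9% of all genes were called, 7.23% higher. They were PABPC1 (1.00), SMARCC1 (0.70) and CREBBP (0.56, lost without DMSO replicate 2 at 0.477).

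**Figure D4:**
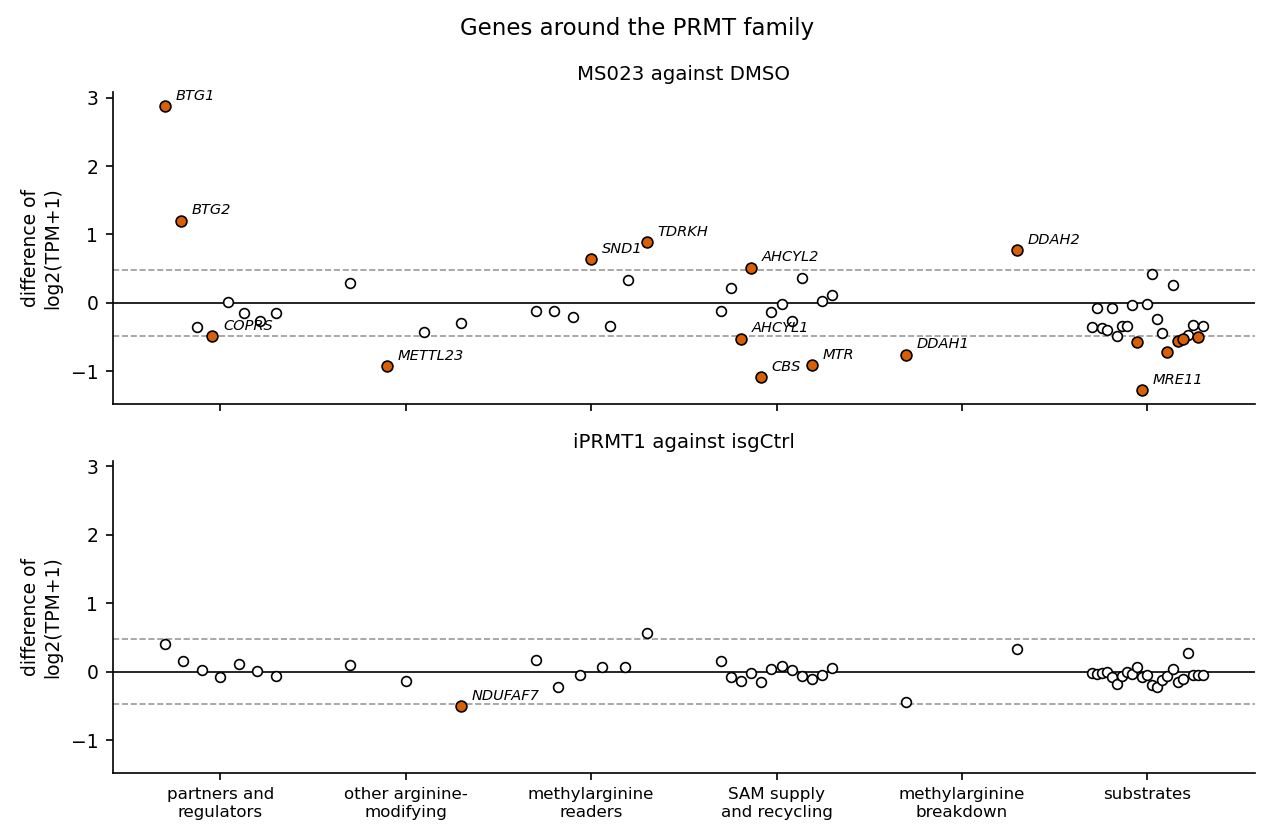
Differences of log2(TPM+1) for tested genes of 6 lists around the PRMT family, with MS023 (top) and with the PRMT1 guide (bottom). Each point is a gene, filled points were called, and dashed lines mark -0.48 and 0.48. BTG1 (2.87) and BTG2 (1.20) stand highest with MS023, and NDUFAF7 (-0.50) is the only filled point with the guide.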

How the data were processed

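Total RNA of 12 JJN3 samples was sequenced. The authors checked reads with FastQC, trimmed them with Trimmomatic, aligned them to hg38 with GENCODE V35 by STAR, quantified them with Salmon, and deposited gene-level log2(TPM+1) values, which were used as they stand. Samples were grouped by their labels. TPM hold no counts, so no count model was used. Genes above 1 in log2(TPM+1), as the mean of any group in the fit, were tested with limma 3.58.1 in R 4.3.3 (eBayes without trend) on the 6 samples of a comparison, or on all 12 for the difference of effects, with Benjamini-Hochberg adjustment over all genes tested. The code was tested on simulated data. Pathway genes named are up to 5 called genes per list, comparison and direction, fixed partners and donor enzymes, and protein-coding neighbours within 10 kb. Positions and 31-base words come from GENCODE v44, promoters from RefSeq. Members and lists were chosen with earlier results of these data known. Alternatives were no filter, a stricter filter, a pseudocount of 0.1, median-ratio and quantile scaling, eBayes with trend, the replicate number as a block, all 12 samples, and each sample left out. Guide sequences were not analysed here, and 3 genes of the substrate list are left out and not reported here.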

Additional observations from a re-analysis of the deposited data

Results flagged for a closer look

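The effect of MS023 minus that of the PRMT1 guide differed for 4 members in the limma fit of all 12 samples. PRMT1, the target of the guide, was among them, and 24.4% of the 13256 genes tested differed. The differences of effects on log2(TPM+1) were 1.54 for PRMT1, -0.983 for PRMT3, -0.845 for PRMT9 and -0.488 for PRMT6 (Benjamini-Hochberg adjusted p = 3.68e-07, 2.47e-05, 0.00257 and 0.00178 in limma). PRMT1 was lower with the guide in 3 of 3 samples, while PRMT3, PRMT9 and PRMT6 were lower in 3 of 3 MS023 samples than in any DMSO sample. The value of PRMT6 moved under the threshold of 0.48 when single samples were left out.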

How the results depend on the processing

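Calls of members rested on 3 samples a group and on TPM, which give no depth. Over all alternatives, 471 of 488 values of members kept their direction and side of the threshold, 10 lost their call and 7 changed sign. For other named genes 593 of 653 kept both, 56 lost their call and 4 changed sign. The counts of called members stayed within 1.5 times of the main count in 60 of 61 alternatives. That range takes in a change from 3 to 2, as with MS023 under both scalings. It also takes in the settings where PRMT6 lost its call for the difference of effects. With the replicate number as a block, 0 members were called in iPRMT1 cells in place of 1 and 0 genes in place of 96, where limma still gave 2054 genes, 1 of them a member, at an unadjusted p under 0.05. PRMT1 was then at -1.50 with an adjusted p of 0.149. Same-numbered samples had correlations of deviations between -0.228 and 0.102. These correlations exceeded the mean of the other pairings for 3 of 3 numbers with MS023, 1 of 3 in iPRMT1 and 0 of 3 between the controls. Whether the numbers pair the samples is not in the labels, and 3 samples a group cannot settle it. The block took the call from NDUFAF7 (iPRMT1, adjusted p = 0.184) and, between the controls, from CREBBP (0.0518) and C19orf38 (0.0757). The 96 calls in iPRMT1 became 48 without a filter and 2 to 21 with each sample left out, PRMT1 among them each time. Under median-ratio scaling, calls with MS023 split 1964 lower to 1905 higher in place of 2486 to 1500, in iPRMT1 30 to 65 in place of 45 to 51, between the controls 948 to 678 in place of 848 to 915, and for the difference of effects 1590 to 1627 in place of 1947 to 1284. Called members with MS023 numbered 2 in place of 3 under both scalings, which took PRMT6 under the threshold, also for the difference of effects (-0.41 and -0.396). Signs changed only near 0: PRMT1 with MS023 under quantile normalization (-0.0298), and PRMT2 in iPRMT1 under median-ratio scaling (0.0217) and quantile normalization (0.0278). With each sample left out, ranges crossed 0 for CARM1 with MS023 (-0.0383 to 0.045), for PRMT2 in iPRMT1 (-0.0533 to 0.0126) and between the controls (-0.033 to 0.0121), and in iPRMT1 for MTAP (-0.0337 to 0.122) and CLNS1A (-0.000489 to 0.0314). Where a group kept 2 samples, the fit pooled the spread of both groups. The causes were not tested.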

Other observations

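Genes whose level ran most alike to each member over the 12 samples are given as a description, by Pearson's r of log2(TPM+1) among 6057 genes with an SD of at least 0.3. All samples share the 4 groups, so r follows the group means and carries no p. For PRMT1 they were CALHM2 (0.885), ZNF600 (0.836) and ZNF391 (0.824). CALHM2 averaged 3.19 in DMSO, 3.07 in MS023, 3.18 in isgCtrl and 2.28 in iPRMT1 on the log2(TPM+1) scale. For PRMT3 it was the histone chaperone ASF1B (0.995), which averaged 6.42, 4.79, 6.72 and 6.46 in the same order. The others were MTERF3 for PRMT5 (0.994), WNT10B for PRMT6 (0.993), AMPD1 for CARM1 (0.989), CNIH1 for PRMT9 (0.979), TMEM131L for PRMT7 (0.965) and CCDC169 for PRMT2 (0.87). Among the members themselves, PRMT5 and PRMT6 had the highest r (0.982), and the other pairs among PRMT3, PRMT5, PRMT6 and PRMT7 had 0.906 to 0.926. The r of PRMT1 with the other members lay between -0.232 and -0.0416.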
